A study of Mus musculus with 6 samples.

Results

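NF-kB is a family of transcription factor subunits that pair up, wait in the cytoplasm bound to inhibitors, and enter the nucleus when kinases free them. The 10 genes described here are its subunits (Nfkb1, Nfkb2, Rela, Relb, Rel), inhibitors or modulators (Nfkbia, Nfkbiz, Tnfaip3) and upstream kinases (Map3k14, Ikbkb). They were chosen by gene name from the 55487 genes of the count files, and all 10 were found once in each file and passed the filter on low counts. Between mutant and control crypts 7 of them rose, where 23.5% of all 18539 tested genes rose and 22.8% fell. Nfkb2, the precursor gene of the non-canonical branch, had the largest log2 fold change, followed by Map3k14 and Nfkbia, which differed from each other by less than 1 SE. Rel alone fell, by a small amount whose call was not stable, and Ikbkb and Nfkbiz did not pass the test.

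Colonic crypt cells were purified from C57BL/6 mice at 4 weeks of age, and libraries were made from their polyadenylated RNA. The 3 control mice carried M14(f/f), a loxP-flanked M14 gene on each chromosome, and no Cre. The 3 mutant mice carried M14(f/f) together with Villin-Cre, a transgene that expresses Cre recombinase in the gut epithelium and leaves leukocytes and stroma of the preparation unrecombined. M14 is read here as Mettl14, which acts with Mettl3 to place N6-methyladenosine on RNA. All 6 mice shared the flanked alleles, and none carried Cre without them, so an effect of Cre cannot be told apart from one of the deletion. The mice are described for the series as 3 pairs. Which control was matched to which mutant is not in the labels, so the fit was made without pairs. No label says whether the replicates came from separate litters or preparations, and p-values measure only the spread between these samples.

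In the canonical branch, signals from TNF receptors, Toll-like receptors or the IL-1 receptor activate the IkB kinase complex, which marks the inhibitor IkB-alpha for destruction and frees dimers of RelA with p50. In the non-canonical branch, receptors such as RANK and the lymphotoxin-beta receptor stabilise the kinase NIK, which leads to the cutting of the Nfkb2 product p100 into p52, the partner of RelB. In intestinal epithelium the pathway is known for barrier defence and inflammation, and RANK signalling through it for the formation of M cells over lymphoid tissue.

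Several of these genes are textbook targets of the pathway itself, so stretches of promoter are shown for 3 members that rose and for Rel. RefSeq promoters (GRCm38.p6, 250 bases before to 50 after each start) were given for 6 of the 10 members. Those of Nfkb1, Relb, Nfkbiz and Ikbkb were not used here. The sequences were searched on both strands for GGGNNNTTCC, a form of the kB site picked after the sequences were viewed. A match was held by 5.56% of all 32851 promoters given and by 7 of the 9 promoters of the members. These 9 belong to 6 members, of which 4 held a match. Some members had several promoters, and overlapping promoters of Nfkb2 held a site in common. Since the motif was picked with these sequences in view, nothing is read from the difference to all promoters. Capitals mark the matched 10 bases. Sequences run 5′ to 3′ on the gene's strand, and positions count back from -1 just before the RefSeq start. The gene spans of the count files begin further upstream for Nfkb2 (46304320, plus strand) and Tnfaip3 (19015657, minus strand). The stretches printed for these genes therefore lie inside the annotated gene, and those of Nfkbia and Rel lie outside it.
Nfkb2, bases -48 to -19, plus strand of chr19:46304689-46304718: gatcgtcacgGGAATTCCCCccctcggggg
Nfkb2, bases -15 to 15, plus strand of chr19:46304722-46304751: gaaaGGGGCTTTCCcggctggagccctttg
Nfkbia, bases -121 to -2, minus strand of chr12:55492649-55492768: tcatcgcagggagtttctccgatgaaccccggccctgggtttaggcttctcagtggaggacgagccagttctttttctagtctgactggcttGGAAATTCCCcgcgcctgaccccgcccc
Tnfaip3, bases -121 to -2, minus strand of chr10:19015412-19015531: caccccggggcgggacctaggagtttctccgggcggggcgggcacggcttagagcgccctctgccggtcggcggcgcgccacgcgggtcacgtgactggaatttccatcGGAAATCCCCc
Rel, bases -121 to -2, minus strand of chr11:23770971-23771090: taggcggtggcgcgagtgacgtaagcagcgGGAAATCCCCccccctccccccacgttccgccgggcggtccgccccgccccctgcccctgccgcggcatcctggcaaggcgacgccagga

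In Nfkb2 the matches lay at bases -38 to -29, on the opposite strand, and at -11 to -2, on the gene's own strand. Those in Nfkbia (-29 to -20), Tnfaip3 (-12 to -3) and Rel (-91 to -82) lay on the opposite strand. Tnfaip3 had another match at bases 34 to 43, and further RefSeq starts of Nfkb2 and Tnfaip3 also held matches. The promoters of Rela and Map3k14 held none of these letters in this window. A match was therefore present both in members that rose and in Rel, which fell. It describes the sequence, and binding was not measured.

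Library totals ran from 24181631 to 35183636 counts, and a gene with no count in a library may still lie anywhere under 0.0820 to 0.120 CPM (a count relative to the TMM-scaled library total, in the usual CPM unit), the level of 3 counts there. That limit covers counting error only, since PCR reads without molecular identifiers are not independent molecules. Mettl14, the targeted gene, stood at 26.2, 20.9 and 22.0 CPM in controls 1 to 3 and at 13.99, 13.8 and 10.5 CPM in mutants 1 to 3. The count covers all exons of the gene, and which of them the loxP sites flank is not given in the sources used here. Its groups did not overlap, and the gene fell (log2 fold change -0.85, SE 0.13, edgeR adjusted p = 6.22e-04). The labels give no sex, and transcripts of sex chromosomes set mutants 1 and 2 apart from the controls and mutant 3. Xist, made from the inactive X chromosome of females, stood at 652 CPM in mutant 1 and 53.1 CPM in mutant 2, against 1.28 to 1.77 CPM in the other 4 libraries. Ddx3y, a gene of the Y chromosome, stood at 0.541 CPM in mutant 1, 37.98 CPM in mutant 2 and 44.2 to 58.4 CPM elsewhere. Mutant 1 thus had the transcripts of a female and mutant 2 held both. Whether the library of mutant 2 came from 1 mouse was not tested. The groups therefore differed in these transcripts as well as in genotype. With mutants 1 and 2 both left out, only 1 mutant library remained against 3 controls, so only effect sizes are given for that fit. In it the 7 members that rose with all 6 libraries had log2 fold changes from 0.36 (Rela) to 2.17 (Nfkb2). That of Rel was -0.44.

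The epithelial identity of the samples was carried by all 12 epithelium markers fixed for this check, among them Epcam, Cdh1 and Cdx2. Their summed level was 33333 to 37175 CPM in controls and 21142 to 22513 CPM in mutants. Of these markers 6 fell and 1 rose. The number that fell was 3 with scaling by total counts or a threshold of 0.01, and 2 when tested against a 1.5-fold change. The rise was lost with upper quartile scaling, no filter, the 1.5-fold change, the threshold of 0.01 and the replicate block. It was also lost in most fits that left out 1 library. Counts of markers are read beside the 23.5% of all tested genes that rose and the 22.8% that fell. A marker low in 1 group was tested only if the other was high, so counts of scarce markers rest in part on the filter. Of 14 macrophage and dendritic cell markers 13 rose and C1qa fell. Their summed level was 34.8 to 44.4 CPM in controls and 79.0 to 109 CPM in mutants. Of 7 neutrophil markers 4 rose and 2 were too low to test, with sums of 9.36 to 13.1 and 13.3 to 39.9 CPM. Elane was at 0 in every control. The leukocyte gene Ptprc did not pass, at 7.42 to 8.93 CPM in controls and at 8.23 to 12.8 CPM in mutants. T cell markers (2 of 8 rose, 1 fell) summed to 8.27 to 10.8 and 7.27 to 11.8 CPM, ranges that overlapped. Of 6 B and plasma cell markers 5 were too low to test and the other did not pass, with sums of 0.710 to 1.22 and 1.16 to 2.04 CPM. Fibroblast markers (4 of 6 fell) summed to 194 to 226 and 84.6 to 102 CPM, and endothelial markers (2 of 5 rose) to 9.94 to 11.3 and 19.3 to 21.4 CPM. Leukocytes also express the NF-kB genes, and the part of these shifts in the results below was not tested. In bulk RNA, fewer cells of a type and less RNA per cell cannot be told apart.

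Of the 10 members 7 rose, where 23.5% of the 18539 tested genes did, and 1 fell, where 22.8% did. Rose and fell mean an adjusted p under 0.05 in edgeR's quasi-likelihood test, with Benjamini-Hochberg adjustment over all tested genes. The CPM ranges of the 3 control and 3 mutant libraries were apart and higher in mutants for the same 7 members, against 28.7% of all genes, and apart and lower for Rel, against 28.2%. In 4 members, Nfkb2, Map3k14, Nfkbia and Tnfaip3, the rise exceeded 1 on the log2 scale, as in 10.5% of all genes. The median log2 fold change was 0.66 over the members and 0.01 over all tested genes. Tested against a 1.5-fold change in place of no change, 5 members stayed higher (9.28% of all genes), and Nfkb1 and Rela did not pass.

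**Figure D1:**
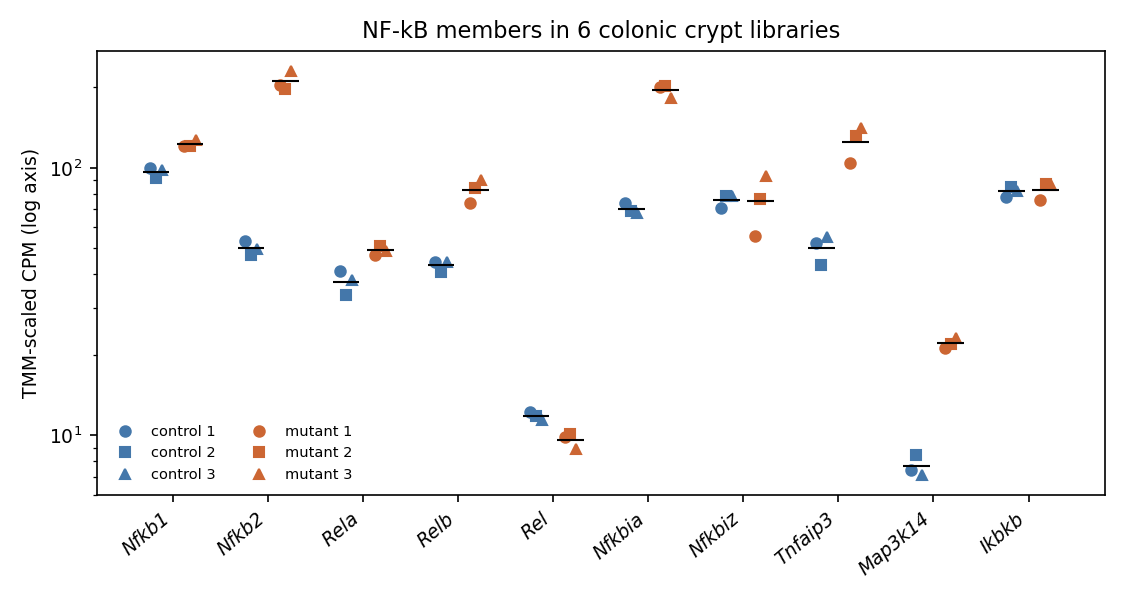
TMM-scaled CPM (log axis) of each member in each library, with controls in blue, mutants in orange, marker shape for the replicate number and a black line for the mean of 3 libraries. The groups stand apart for Nfkb1, Nfkb2, Rela, Relb, Rel, Nfkbia, Tnfaip3 and Map3k14, and overlap for Nfkbiz and Ikbkb.

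**Figure D2:**
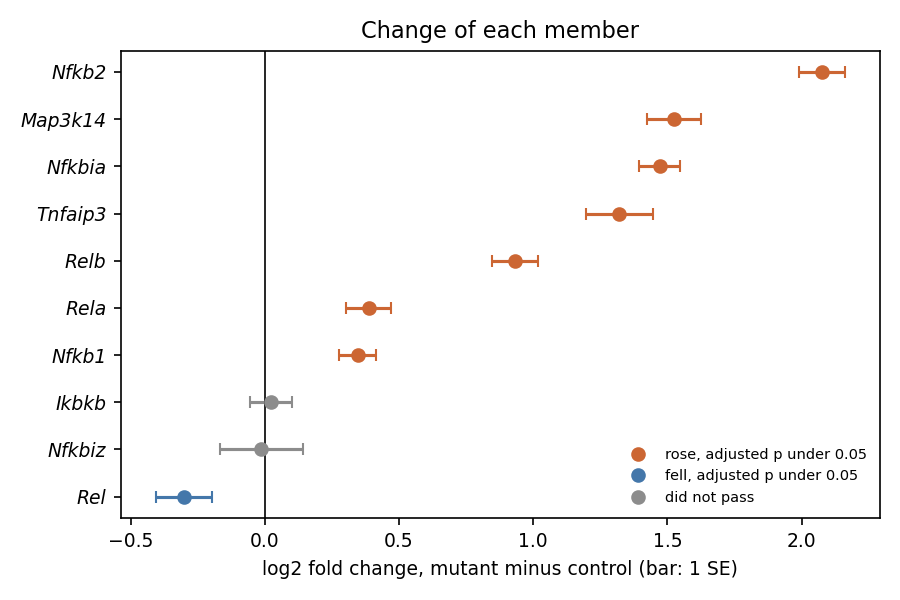
Log2 fold change of each member, mutant minus control, with bars of 1 SE from edgeR, colored by the call. The values run from -0.30 for Rel to 2.08 for Nfkb2.

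The 5 subunits share the domain that binds DNA, but Nfkb1 and Nfkb2 are made as long precursors, p105 and p100, whose tails act as inhibitors until removed. Nfkb2 (ENSMUSG00000025225.15, plus strand of chromosome 19, 46304320 to 46312385) stood at 53.1, 47.3 and 49.7 CPM in controls and at 205, 198 and 230.3 CPM in mutants. Every mutant library held over 3 times the level of any control. Its log2 fold change of 2.08 (SE 0.086, edgeR adjusted p = 1.98e-07) exceeded that of every other member. Nfkb1 (ENSMUSG00000028163.17, minus strand of chromosome 3, 135584655 to 135691547), the gene of p105 and p50, rose less. It stood at 100.1, 91.3 and 98.1 CPM in controls and at 120.4, 121 and 127 CPM in mutants. The groups did not overlap, though the gap between them was narrow, and the log2 fold change was 0.35 (SE 0.069, edgeR adjusted p = 0.00270).

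A second gene lies across the start of Nfkb2 on the other strand. This gene, 4833438C02Rik (ENSMUSG00000118087.1, minus strand of chromosome 19, 46303591 to 46305611), is annotated as a noncoding RNA from a bidirectional promoter in GENCODE vM21, under another name and the same identifier. It was singled out after its values were seen. It stood at 10.98, 10.03 and 10.002 CPM in controls and at 37.1, 35.3 and 39.8 CPM in mutants, with a log2 fold change of 1.85 (SE 0.085, edgeR adjusted p = 4.17e-07). Its counts came to 20.7%, 21.2% and 20.1% of those of Nfkb2 in controls and 18.1%, 17.8% and 17.3% in mutants. Both rose, and the proportion was lower in every mutant than in every control, since the change of Nfkb2 was the larger. Counting used the strand of the read, and carry-over of reads between the strands was not tested.

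Rela, Relb and Rel encode the subunits that carry a transcription-activating domain. Relb (ENSMUSG00000002983.17, minus strand of chromosome 7, 19606217 to 19629438), the usual partner of p52, stood at 44.4, 40.8 and 44.6 CPM in controls and at 73.8, 83.8 and 90.0 CPM in mutants. The lowest mutant was well above the highest control, and the log2 fold change was 0.93 (SE 0.086, edgeR adjusted p = 2.70e-05). Rela (ENSMUSG00000024927.8, plus strand of chromosome 19, 5637483 to 5648130), the main activating subunit of the canonical branch, stood at 41.0, 33.6 and 38.04 CPM in controls and at 47.1, 51.1 and 49.1 CPM in mutants. All mutants were above all controls, and the log2 fold change was 0.39 (SE 0.085, edgeR adjusted p = 0.00446). For Rela the log2 fold change was 0.36 with mutants 1 and 2 left out, which leaves 1 mutant library.

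Rel (ENSMUSG00000020275.9, minus strand of chromosome 11, 23736847 to 23770970) encodes c-Rel, a subunit known mainly from lymphoid and myeloid cells. It stood at 12.2, 11.8 and 11.5 CPM in controls and at 9.86, 10.1 and 8.91 CPM in mutants. It was the only member lower in all 3 mutants than in all 3 controls. Its log2 fold change was -0.30 (SE 0.11, edgeR adjusted p = 0.0405). The call was lost when any of the 6 libraries was left out alone (adjusted p from 0.0502 to 0.128), with DESeq2 (0.0656), with scaling by total counts (0.117) and with the replicate number as a block (0.0799).

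Set side by side per kilobase of exon, the makeup of the subunit transcripts changed as well as their amount. The sum over the 5 subunits, in RPKM (TMM-scaled CPM divided by merged exon length in kilobases), was 46.3, 40.9 and 44.4 in controls and 90.3, 92.7 and 101 in mutants. Nfkb2 made up 25.0%, 25.2% and 24.4% of that sum in controls and 49.5%, 46.5% and 49.7% in mutants. The share of Rela was 27.8% ± 1.06 in controls and 16.9% ± 1.07 in mutants (SD, n = 3 each), although its level rose. The share of Nfkb1 was 18.3% ± 0.294 and 10.7% ± 0.326, and that of Relb 25.4% ± 0.647 and 22.4% ± 1.21. Rel was the smallest part in every library, at 3.62% ± 0.225 in controls and 1.37% ± 0.161 in mutants. Shares sum to a whole, so a larger share of Nfkb2 lowers the others.

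**Figure D3:**
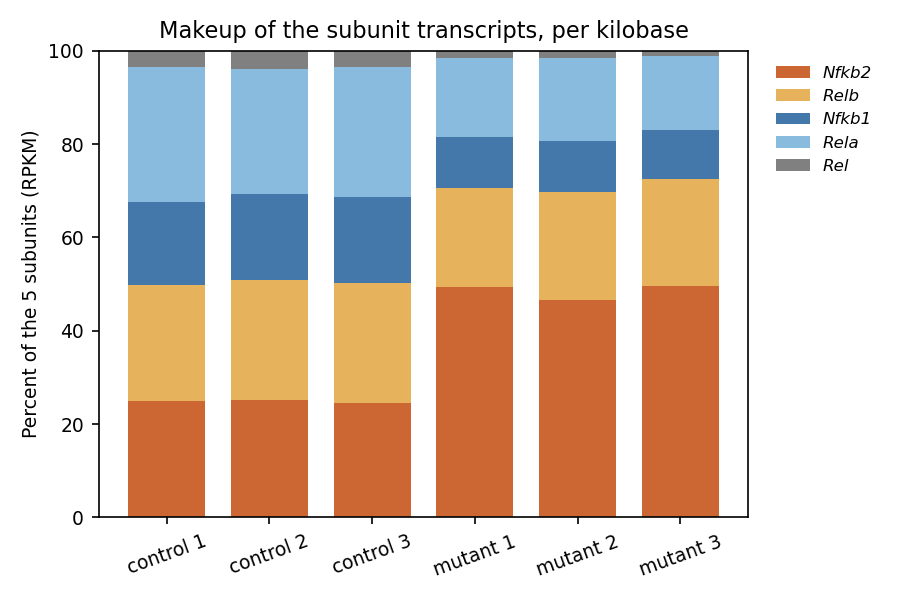
Stacked bars of the percent of the summed RPKM of the 5 subunits taken by each subunit, 1 bar per library. Nfkb2 takes 24.4% to 25.2% in controls and 46.5% to 49.7% in mutants.

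Among the inhibitors, Nfkbia encodes IkB-alpha, which holds RelA dimers in the cytoplasm and is remade quickly after activation because its gene is an NF-kB target. Nfkbia (ENSMUSG00000021025.8, minus strand of chromosome 12, 55489410 to 55492647) stood at 74.0, 68.9 and 67.9 CPM in controls and at 200.1, 202 and 182 CPM in mutants. The mutant libraries lay close together, each at over 2 times the level of any control. The log2 fold change was 1.47 (SE 0.076, edgeR adjusted p = 7.89e-07). Tnfaip3 (ENSMUSG00000019850.11, minus strand of chromosome 10, 19000910 to 19015657) encodes the ubiquitin-editing enzyme A20, which shuts down signalling from TNF and Toll-like receptors. It stood at 52.3, 43.2 and 55.2 CPM in controls and at 104.6, 131 and 140.4 CPM in mutants. Mutant 1 was the lowest of the mutants and still above every control, and the log2 fold change was 1.32 (SE 0.12, edgeR adjusted p = 3.07e-05).

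Nfkbiz (ENSMUSG00000035356.17, minus strand of chromosome 16, 55811375 to 55838899) encodes IkB-zeta, a nuclear protein that works with p50 at a subset of targets and is induced by IL-17 and Toll-like receptor signals. It stood at 70.8, 78.8 and 78.7 CPM in controls and at 55.8, 76.8 and 93.3 CPM in mutants. The mutant libraries bracketed the controls, with mutant 1 lowest and mutant 3 highest of all 6. The log2 fold change was -0.01 (SE 0.15, edgeR adjusted p = 0.953). It was 0.15 without mutant 1 and -0.20 without mutant 3 (edgeR adjusted p = 0.222 and 0.267). Without mutants 1 and 2, which leaves 1 mutant library, it was 0.27. Its direction thus depended on which mutant library was kept.

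The kinases moved differently from each other. Map3k14 (ENSMUSG00000020941.7, minus strand of chromosome 11, 103219762 to 103267472) encodes NIK, the kinase that starts the non-canonical branch and is controlled largely by protein turnover. It stood at 7.45, 8.46 and 7.13 CPM in controls and at 21.2, 22.0 and 23.1 CPM in mutants. The lowest mutant was over 2 times the highest control, and the log2 fold change was 1.52 (SE 0.10, edgeR adjusted p = 3.84e-06). Ikbkb (ENSMUSG00000031537.15, minus strand of chromosome 8, 22659212 to 22706589) encodes IKK-beta, the catalytic subunit that acts on IkB-alpha. It stood at 77.9, 84.6 and 82.3 CPM in controls and at 75.6, 86.7 and 86.6 CPM in mutants. The groups overlapped, and the log2 fold change was 0.02 (SE 0.077, edgeR adjusted p = 0.823).

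Within a library the ratio of 2 members does not depend on scaling between libraries. For 4 pairs, ratios of counts per kilobase were compared. The ratio of Nfkb2 to Nfkb1 was 1.40, 1.36 and 1.33 in controls and 4.48, 4.32 and 4.78 in mutants, a difference of 1.73 on the log2 scale. In controls it was above 1 only on the scale per kilobase, since Nfkb1 had more counts there (3509 against 1861 in control 1). The difference between the groups does not depend on the lengths. The ratio of Relb to Rela was 0.856, 0.961 and 0.928 in controls and 1.24, 1.30 and 1.45 in mutants (0.54 on the log2 scale). It passed 1 only on the scale per kilobase, since Relb had more counts than Rela in all 6 libraries. The ratio of Nfkbia to Rela was 3.45, 3.91 and 3.41 in controls and 8.10, 7.56 and 7.08 in mutants (1.08 on the log2 scale). The ratio of Map3k14 to Ikbkb was 0.278, 0.291 and 0.252 in controls and 0.816, 0.740 and 0.776 in mutants (1.51 on the log2 scale). In all 4 ratios every mutant was above every control. Each gave p = 0.1 by a 2-sided exact permutation test over samples, also after adjustment over the 4, and 0.1 is the smallest value that 3 against 3 libraries can give.

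**Figure D4:**
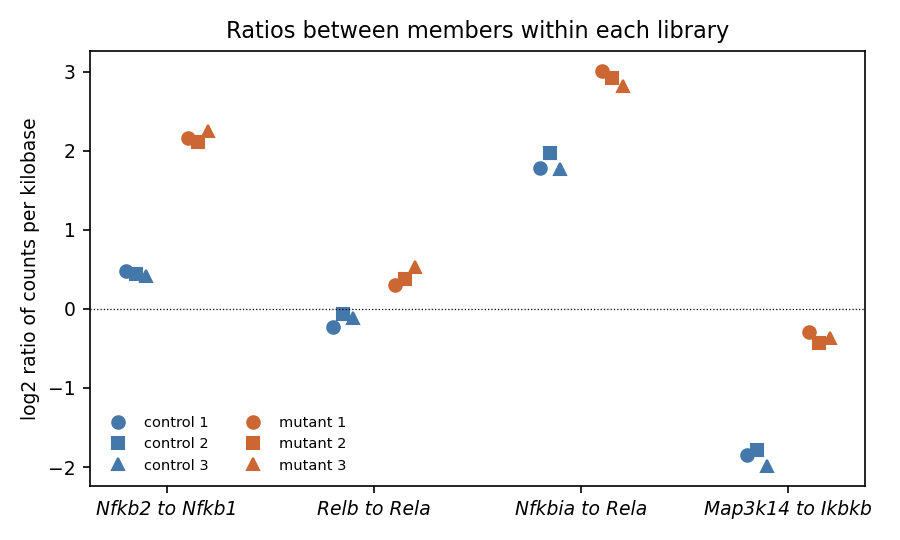
Log2 ratio of counts per kilobase between pairs of members within each library, with controls in blue and mutants in orange. The mutants lie above the controls in all 4 ratios, and the ratio of Relb to Rela changes sides of 0 on this scale per kilobase.

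Ordered by RPKM, Nfkbia was the highest member in both groups, at 43.6 ± 2.05 in controls and 121 ± 6.88 in mutants (SD, n = 3 each). In controls it was followed by Nfkbiz (15.2 ± 0.916), Rela (12.2 ± 1.22), Relb (11.1 ± 0.553), Nfkb2 (10.9 ± 0.641), Nfkb1 (8.001 ± 0.385), Tnfaip3 (6.95 ± 0.865), Ikbkb (4.28 ± 0.177), Rel (1.59 ± 0.0508) and Map3k14 (1.17 ± 0.106). The ranges of Rela and Relb, of Relb and Nfkb2, and of Nfkb1 and Tnfaip3 overlapped, and those of the other neighbours did not. In mutants Nfkb2 (46.02 ± 3.73) came next after Nfkbia, ahead of Relb (21.2 ± 2.11) and Tnfaip3 (17.4 ± 2.57). Rela (16.0 ± 0.642), Nfkbiz (15.004 ± 3.75), Nfkb1 (10.2 ± 0.304), Ikbkb (4.35 ± 0.335), Map3k14 (3.37 ± 0.145) and Rel (1.29 ± 0.0831) followed. The neighbouring ranges from Relb down to Nfkbiz overlapped. Nfkb2 thus moved from the fifth place to the second, and Map3k14 and Rel exchanged the last places. Merged exon length counts the exons of all transcripts of a gene, which lowers the RPKM of genes with long rare exons.

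The profiles nearest to those of Nfkb2 and Nfkbia were sought among 10359 other tested genes with a mean of at least 5 CPM. Likeness was the root mean square difference of log2 CPM over the 6 libraries after each gene's control mean was subtracted. Nearest to Nfkb2 were Bambi, a decoy receptor for BMP and TGF-beta signals (0.0890), Nxt1, a cofactor of mRNA export (0.0891), and Dusp22, a phosphatase (0.0999). Bambi stood at 4.37 ± 0.282 CPM in controls and at 18.1 ± 0.474 CPM in mutants. Nearest to Nfkbia were Cnp (0.0527), Plxnb1, a semaphorin receptor (0.0538), and Pitpnm2 (0.0704). With 6 libraries in 2 groups, the measure reflects mainly the size of the difference between genotypes.

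The other genes of the pathway were taken from 8 lists by role. Counts of the lists are read beside the 23.5% of all tested genes that rose and the 22.8% that fell. A gene low in both groups was not tested, and a gene low in 1 group was tested only if the other was high. Counts and medians of lists with such genes therefore rest in part on the filter. Of the 4 remaining IkB genes 3 rose and Nfkbib did not pass, and the median log2 fold change was 1.01. Nfkbie, the gene of IkB-epsilon, stood at 3.94, 2.64 and 3.81 CPM in controls and at 42.6, 38.4 and 39.8 CPM in mutants (log2 fold change 3.54, SE 0.14, edgeR adjusted p = 1.53e-07). That change was larger than those of the 10 members. Nfkbid rose by 1.11 and Bcl3, a nuclear partner of p50 and p52, by 0.91 on the log2 scale. Nfkbib stood at 28.8 ± 2.23 and 29.3 ± 0.329 CPM (adjusted p = 0.797 by edgeR).

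Of 16 other negative regulators 9 rose, 2 fell and 5 did not pass. Against a 1.5-fold change 4 of the 16 stayed higher and 1 lower. The A20-binding proteins Tnip3 (13.03 ± 0.848 to 88.7 ± 23.3 CPM) and Tnip1 (165 ± 15.7 to 294 ± 21.4 CPM) rose, as did Traf3, the adaptor that keeps NIK low (39.1 ± 1.01 to 74.9 ± 5.29 CPM). Itch, a ubiquitin ligase that works with A20, fell from 122 ± 2.66 to 75.7 ± 1.12 CPM. Tax1bp1, an A20 adaptor named because the count was small, fell from 1118 ± 196 to 527 ± 51.1 CPM. The deubiquitinase Cyld, chosen after its value was seen, stood at 50.1 ± 2.56 and 46.1 ± 1.37 CPM (edgeR adjusted p = 0.181).

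Kinases and kinase subunits other than Map3k14 and Ikbkb gave counts near those over all genes: of 11 genes 3 rose and 3 fell, 27.3% each, against 23.5% and 22.8% of all tested genes, and 5 did not pass. Their median was -0.10 on the log2 scale. Chuk, which encodes IKK-alpha, the kinase that NIK activates, fell from 108 ± 4.03 to 78.1 ± 5.39 CPM. Its change was -0.46 on the log2 scale (SE 0.075, edgeR adjusted p = 7.77e-04). Tab1, a partner of the kinase TAK1, fell from 32.5 ± 2.68 to 21.0 ± 1.66 CPM. Tank, an adaptor of TBK1, rose from 52.8 ± 3.97 to 85.4 ± 9.78 CPM, and Map3k8, the kinase held by p105, from 2.58 ± 0.726 to 6.07 ± 0.912 CPM. Against a 1.5-fold change 1 gene of the list stayed higher and none lower.

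Of 26 adaptors and ubiquitin ligases 12 rose, 6 fell and 8 did not pass. The share that rose was 46.2%, against 23.5% of all tested genes, and the share that fell was 23.1%, close to the 22.8% of all tested genes. Traf6, which relays IL-1, Toll-like receptor and RANK signals, rose from 32.2 ± 1.64 to 67.9 ± 5.14 CPM. Birc3, a ligase that removes NIK together with Traf3, rose by 1.75 and Fadd, the death receptor adaptor, by 0.92 on the log2 scale. Card10, the scaffold of the complex with Bcl10 and Malt1 in epithelial cells, fell from 38.4 ± 2.70 to 19.97 ± 2.78 CPM. Against a 1.5-fold change 4 of the 26 stayed higher and 1 lower.

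Receptors mostly rose, 13 of 19 tested, with 3 that fell and 3 that did not pass. Of those that rose, Cd40 and Il1rl1, named for this limit, were tested only because of their mutant libraries. They had 3 to 18 counts in each control. Of the 13, 5 passed as higher against a 1.5-fold change. Tnfrsf11a, the gene of RANK, stood at 83.8, 83.2 and 89.1 CPM in controls and at 241, 205 and 180 CPM in mutants (log2 fold change 1.29, SE 0.10, edgeR adjusted p = 1.26e-05). Tnfrsf1b, the second TNF receptor, rose from 26.6 ± 3.52 to 68.6 ± 8.77 CPM and Il17ra, an IL-17 receptor chain, from 23.2 ± 1.12 to 41.02 ± 2.13 CPM. Nod1, a sensor of bacterial peptidoglycan, fell from 21.2 ± 0.280 to 11.1 ± 1.15 CPM, and Tlr1 and the flagellin receptor Tlr5 were the others that fell. Ltbr, the lymphotoxin-beta receptor, was chosen after its value was seen and did not pass (95.7 ± 9.55 and 101 ± 4.51 CPM).

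Of 15 ligands 9 were high enough to test, and 5 rose and 3 fell. Of the 5, Il1a, Il1b and Il17c, the last named for this limit, were tested only because of their mutant libraries. They had 0 to 10 counts in each control. Ligands low in both groups were not tested, so the count of 5 rests in part on the filter. Tnf stood at 3.08, 1.28 and 2.81 CPM in controls and at 11.7, 19.5 and 16.02 CPM in mutants (log2 fold change 2.72, SE 0.30, edgeR adjusted p = 7.41e-05). Ltb, which encodes lymphotoxin-beta, stood at 0.514, 0.623 and 0.581 CPM in controls and at 7.81, 6.96 and 7.27 CPM in mutants. Il1a (0.0594 to 0.0968 CPM in controls, 1.70 to 3.80 CPM in mutants) and Il1b (0 to 0.285 and 5.84 to 9.13 CPM) were near the detection limit in controls. The log2 fold change of Il1b was 5.69, 6.60 without control 1 and 5.10 without control 2. These ligands are also made by macrophages, most of whose markers rose in the same libraries. The part of such cells in these changes was not tested. Tnfsf11, the gene of RANK ligand, was chosen after its value was seen and was too low to test, at means of 0.0302 and 0.0878 CPM. The 3 that fell were Il18, Il33 and Tnfsf13b, with log2 fold changes of -1.77, -1.29 and -1.08.

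Among 27 target genes of the pathway 25 were tested, of which 17 rose, 4 fell and 4 did not pass. Among those that rose, Ccl2, Cxcl1, Cxcl2 and Cxcl5, named for this limit, were tested only because of their mutant libraries. They had 0 to 12 counts in each control, so the count and the median of the tested genes rest in part on the filter. Their median was 1.29 on the log2 scale. By the smallest p the list was led by Ccl20, a chemokine for lymphocytes and dendritic cells, by Tnfaip2, by Vcam1 (0.890 ± 0.215 to 19.1 ± 2.14 CPM) and by Il1rn, the IL-1 receptor antagonist. Ccl20 stood at 1.11, 0.564 and 1.29 CPM in controls and at 45.0, 64.1 and 53.3 CPM in mutants. The 4 that fell, named because they are few, were Traf1 (14.6 ± 1.51 to 4.86 ± 0.652 CPM), Cd83, Irf1 and Sod2, with log2 fold changes of -1.59, -0.90, -0.48 and -0.29. Target genes thus did not all follow the members that rose. Against a 1.5-fold change 12 stayed higher and 1 lower.

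All 7 M cell genes, read here beside the RANK branch, rose. Spib, the transcription factor of M cells, stood at 2.94, 2.79 and 2.81 CPM in controls and at 153, 147 and 134 CPM in mutants (log2 fold change 5.67, SE 0.093, edgeR adjusted p = 8.67e-10). Gp2, Sox8 and Marcksl1 rose by 7.79, 6.55 and 2.83 on the log2 scale. Earlier results of these libraries already showed this rise, so it is not independent evidence about the members.

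**Figure D5:**
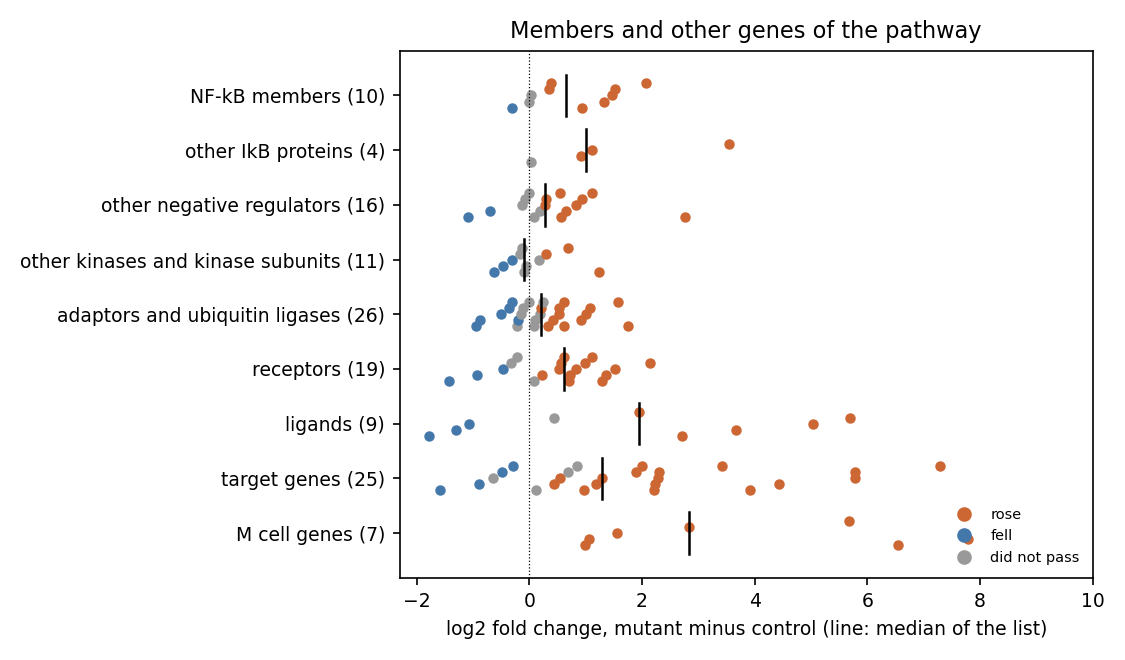
Log2 fold change, mutant minus control, of each tested gene of the members and of the 8 pathway lists (number tested in brackets), colored by the call, with a black line at the list's median. The medians run from -0.10 for other kinases to 2.83 for M cell genes, with the members at 0.66.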

How the data were processed

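Gene counts of 6 libraries (3 control, 3 mutant) were used as deposited, 1 file per library. The submitters' processing notes name Trim Galore 0.6.5, STAR 2.6.1d and GRCm38. Per the file headers, the authors made the counts with featureCounts 1.6.4 on paired fragments, on the strand of read 1, over exons of GENCODE vM25. Reads with several alignments or on several genes were not counted. The other deposited value, per the file headers, is merged exon length, used here for RPKM.

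Counts were tested in R 4.3.3 with edgeR 4.0.16 (low genes removed by filterByExpr at min.count 10 and min.total.count 15, TMM scaling, quasi-likelihood F test, genotype only, all 6 libraries). CPM are TMM-scaled. SE is the absolute log2 fold change over the square root of F. Ratios used the exact permutation test of scipy 1.17.1. Alternatives were other scalings and filters, DESeq2 1.42.0, limma-voom (limma 3.58.1), a 1.5-fold null, a stricter threshold, a replicate block, removal of a ribosomal RNA row, another prior count and left-out libraries. Between libraries of 1 group the chi-square averaged 14 to 90.8 per gene, beyond sampling noise, and each was kept as a replicate.

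The members, lists and tests were chosen with earlier results of these data known. Named genes are the 10 members, Mettl14, from each pathway list up to 4 tested genes with the smallest p, and the 3 nearest profiles to Nfkb2 and to Nfkbia. Others are marked where they appear, as are genes that complete a small count. The 196 listed genes were all found. Protein sequences were not used here.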

Additional observations from a re-analysis of the deposited data

How the results depend on the processing

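The 7 members that rose passed in the same direction under every alternative with more than 1 library per group, except the 1.5-fold null. Against that null 5 passed. Ikbkb and Nfkbiz passed under none. The count of members that fell was 0 in place of 1 with total count scaling, no filter, DESeq2, the 1.5-fold null, the threshold of 0.01 and the replicate block. It was 0 to 0 over the fits that leave out 1 library each. Rel kept its direction in all of them. The number of all genes called fell from 8589 to 2747 against a 1.5-fold change, since that null asks for more. The 4 ratios kept their direction under each alternative, but 3 against 3 libraries cannot give a p under 0.1.

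With the replicate number as a block edgeR called 7403 genes, 7 members higher and none lower, with an adjusted p of 0.0799 for Rel. An exact sign-flip permutation test of the ratios in same-numbered pairs gave p = 0.25, the smallest it allows. Same-numbered libraries did not deviate together (correlations of -0.12, -0.0652 and -0.138), and none correlated best with its own number, so the numbers were not used as pairs.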

Other observations

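Icam1, an adhesion molecule and target gene of the pathway, varied widely among controls. It stood at 87.9, 134 and 3.26 CPM in controls 1 to 3 and at 49.7, 46.1 and 48.2 CPM in mutants 1 to 3. Its log2 fold change was -0.65 (edgeR adjusted p = 0.536), and -1.23 without control 3 (adjusted p = 4.34e-04). The gene was singled out after its values were seen.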
